A study of Homo sapiens with 9 samples.

Results

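The genes described here are 9 named parts of the circadian clock, NR1D1, NR1D2, PER1, PER2, PER3, CRY1, CRY2, CLOCK and DBP. Their members on the array were taken as every probe set whose platform annotation gives a single gene symbol equal to one of these names. A probe set is the group of short array probes that reports one transcript or a few closely related ones. By this rule 7 of the 9 genes were found, out of 19775 genes with a symbol of their own on the array, and they held 16 probe sets. The 3 probe sets of NR1D1 are all annotated to THRA as well, and the 4 of PER1 to MIR6883 as well, so neither gene is given a value here. NR1D2 was chosen by its rise with both miRNAs against control, and its differences from control are therefore given as a description with no test. Whether the values of the other genes played a part in the choice is not recorded, so their differences from control are given in the same way. Tests of members between the forms use the same miRNA arrays and carry the same doubt, so their p-values are descriptive. Counts of members called different from control are printed only beside the share of all features, and nothing is read from them.

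RNA was measured in U87 cells, an established human glioma line, on 9 Affymetrix U133 Plus 2 arrays, 1 per sample. In each culture 100000 cells were transfected with 50 nM of a miRNA duplex through Lipofectamine RNAiMAX and collected after 24 h. The 3 groups received a control miRNA, miR-376a*A or miR-376a*G, with 3 biological replicates each. The A form is the unedited sequence of the miRNA, and the G form stands for the sequence after adenosine-to-inosine editing, in which the edited base is read as G. All 3 groups therefore share the cell line, the reagent and the time of harvest, and all 9 cultures received a duplex. Because 1 time of harvest was sampled, these data hold a level of each gene and no rhythm. Deposited signals are linear intensities scaled to a common trimmed mean, 100.009 to 100.011 per array, with median signals from 17.9 to 20.3. Arrays of one group correlated across genes with r from 0.9865 to 0.9952. Control replicates 1 and 2 stood somewhat apart, with an SD of 0.164 and 0.145 around the group mean (log2) against 0.102 to 0.114 on the other 7 arrays. The number of arrays, 3 a group, limits the precision. Fold values below are on the scale log2(signal + 16), which understates the change of dim genes.

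Markers of the line were read first. VIM (signal 2009 to 2611), CD44 (1821 to 2199) and TNC (1494 to 1782), which glioma cells with mesenchymal traits express, were bright on all 9 arrays. NES (63.9 to 105), CHI3L1 (98.0 to 152), FABP7 (31.9 to 49.9), SOX2 (14.4 to 26.1) and OLIG2 (15.2 to 23.5) were far dimmer. The astrocyte markers GFAP (0.734 to 2.43) and S100B (0.521 to 1.67) were too dim to be tested. Thus 8 of the 10 listed glioma and astroglial markers passed the filter on low values. Summed over that list, signals were 5723 to 6387 in control, 6016 to 6887 with miR-376a*A and 5676 to 5999 with miR-376a*G. Of 11 markers of epithelial, blood, endothelial and nerve cells 6 passed that filter. Summed over all 11, signals were low but did not overlap between the groups. They were 244 to 282 in control, 305 to 331 with miR-376a*A and 172 to 195 with miR-376a*G. PECAM1, an endothelial adhesion molecule, had mean signals of 44.3, 82.7 and 43.6 in control, A and G, and SYT1, a synaptic vesicle protein, had 123, 126 and 58.3. The part of these markers in the results below was not tested.

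The clock is a feedback loop of transcription. CLOCK and its partner BMAL1 bind E-boxes and switch on the PER, CRY and NR1D genes and DBP. PER and CRY proteins return to the nucleus and block CLOCK and BMAL1. NR1D1 and NR1D2 (REV-ERB alpha and beta) are nuclear receptors that repress BMAL1, NFIL3 and other genes through a half-site shared with the activating ROR receptors, with HDAC3 as a corepressor. DBP activates and NFIL3 represses genes that carry a D-box. Many cultured cell lines keep this loop, and serum, glucocorticoids and cyclic AMP can reset it through PER1 and PER2.

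The miRNA and the motif-bearing stretches of the clock promoters are shown because they are the sequences the groups and the loop are named for. The sequence of the transfected duplexes is not given in the sources used here. RefSeq's entry for the 5′ arm, the modern name of the star strand, lies in MIR376A1 at chr14:101040788-101040809 on the plus strand of GRCh38.p14, and its seed (bases 2 to 8) is in capitals. It is the unedited form, and the edited base is not marked.
hsa-miR-376a-5p: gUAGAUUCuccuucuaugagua

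RefSeq's promoter table (GRCh38.p14) held 13 entries for 9 of the 9 genes, and the 250 bases before each start were searched on both strands. The E-box CACGTG was found in 1 entry each of NR1D2 and PER1, against 6.34% of all 35116 promoters of the same length. The D-box, TTATGTAA or TTACATAA, was found in 1 entry each of NR1D2 and PER3, against 0.834%. The nuclear receptor half-site, AGGTCA or TGACCT, was found in PER1 and CRY2, against 12.1%. The cyclic AMP response element TGACGTCA was in 0 of the 13 entries, against 1.65%. NR1D2 was the entry with most matches. Its E-boxes began 155 and 105 bases and its D-box 194 bases before the start, and stretches of 30 bases around them are printed with the motif in capitals. They lie on the plus strand at chr3:23945954-23945983, chr3:23946004-23946033 and chr3:23945916-23945945.
NR1D2 first E-box: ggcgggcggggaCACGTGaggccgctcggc
NR1D2 second E-box: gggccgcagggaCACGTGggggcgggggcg
NR1D2 D-box: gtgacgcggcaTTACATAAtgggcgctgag

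PER3 and PER2 are the members whose signals differed between the miRNA forms, so the 250 bases before a start of each are given in full. The PER3 window is chr1:7784041-7784290 on the plus strand, with its D-box in capitals, which begins 177 bases before the start. The PER2 window is chr2:238288611-238288860 on the minus strand and held none of the motifs searched. A match is only a run of letters, and a window without one says nothing about the factor.
PER3: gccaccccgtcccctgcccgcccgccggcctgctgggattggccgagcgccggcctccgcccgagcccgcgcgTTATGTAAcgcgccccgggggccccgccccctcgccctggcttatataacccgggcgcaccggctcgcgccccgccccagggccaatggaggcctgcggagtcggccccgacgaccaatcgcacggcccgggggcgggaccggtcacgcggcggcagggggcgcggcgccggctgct
PER2: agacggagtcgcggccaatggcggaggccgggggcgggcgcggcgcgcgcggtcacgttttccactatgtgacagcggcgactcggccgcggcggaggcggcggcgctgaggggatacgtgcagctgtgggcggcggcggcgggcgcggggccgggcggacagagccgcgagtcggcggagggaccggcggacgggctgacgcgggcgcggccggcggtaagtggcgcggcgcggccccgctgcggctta

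NR1D2, the repressor receptor, had by far the widest gap between control and the miRNA arrays among the clock genes. Its brighter probe set, 225768_at, gave signals of 78.2, 41.1 and 66.9 in control, 231, 249 and 265 with miR-376a*A and 214, 250.3 and 276 with miR-376a*G. All 6 miRNA arrays lay above all 3 controls, and the A and G values interleaved. The mean was 62.1 ± 19.0 in control, 248 ± 17.0 with A and 247 ± 31.2 with G (SD, n = 3). The log2 difference from control was 1.79 ± 0.153 with A (SE, 95% interval 1.46 to 2.12), a 3.45-fold higher level, and 1.78 ± 0.153 with G (1.44 to 2.11), a 3.42-fold higher level. In RNA from whole cultures, more cells expressing a gene and more of its RNA per cell cannot be told apart.

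The second probe set of NR1D2, 209750_at, gave 97.2, 61.7 and 74.7 in control, 246, 222 and 216 with A and 209, 200.2 and 205 with G. Again no control array reached a miRNA array. Here all A arrays lay above all G arrays, while those of the brighter probe set interleaved. The form difference did not pass on this probe set (limma adjusted p = 0.44). The differences were 1.39 ± 0.115 for A and 1.25 ± 0.115 for G, smaller than on the brighter probe set. Between the forms NR1D2 differed by 0.01 ± 0.153 (95% interval -0.32 to 0.34) on the first and by 0.14 ± 0.115 on the second probe set. A form difference inside that interval cannot be told from none. Control replicate 2 was the lowest and replicate 1 the highest of the control arrays on both probe sets.

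**Figure D1:**
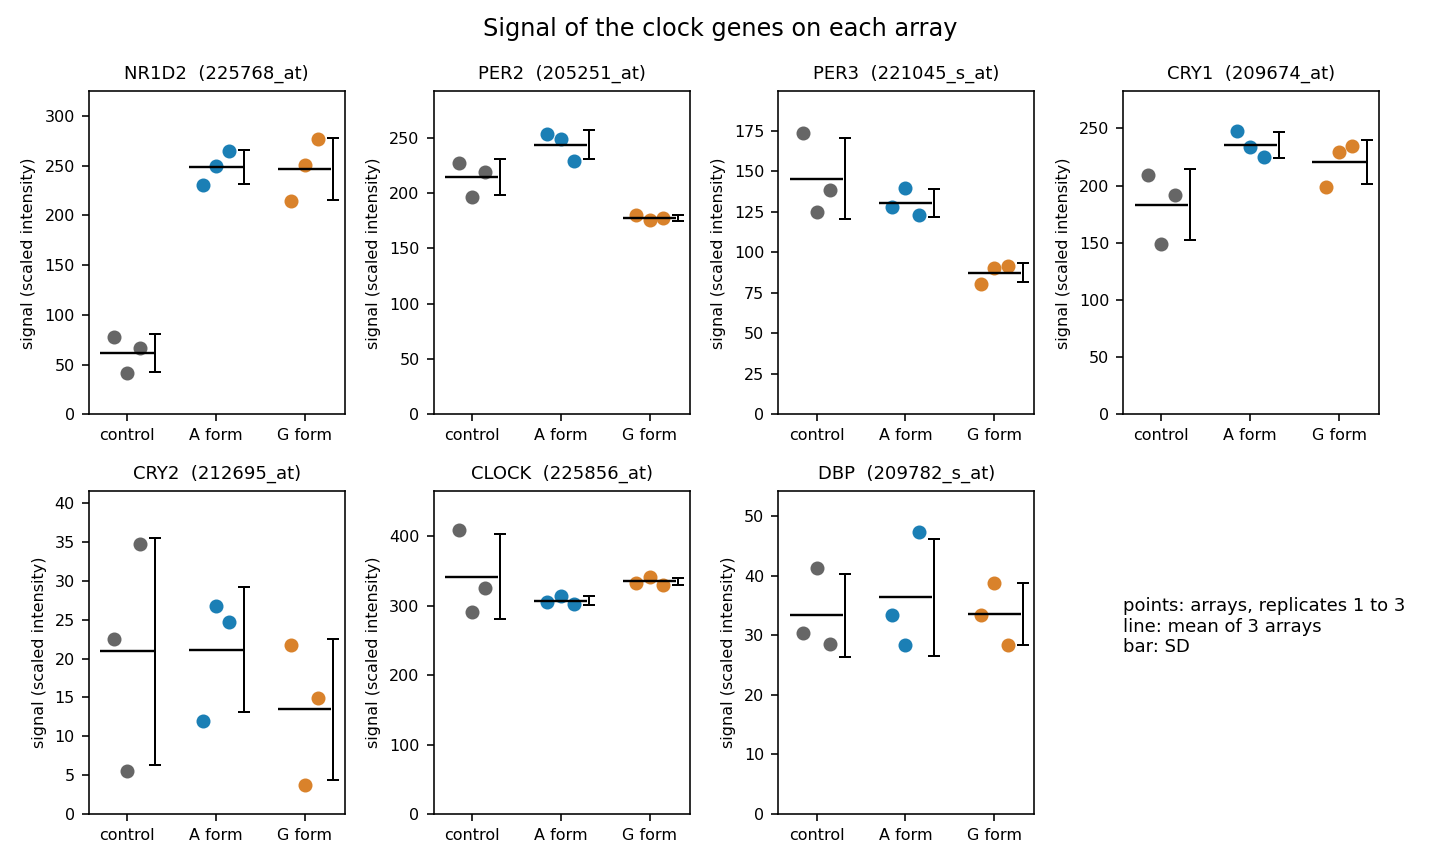
Signal (scaled intensity, linear axis from 0) of the brightest probe set of each of the 7 clock genes, with 1 point per array in replicate order, a line at the group mean and a bar for the SD (n = 3). NR1D2 is low in control and about equal with both forms, while PER2 and PER3 are lowest with miR-376a*G.

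PER2, a repressor of CLOCK and BMAL1, differed between the forms. Its brighter probe set, 205251_at, read 227, 196 and 219 in control, 253, 248 and 229 with miR-376a*A, and 180, 175 and 177 with miR-376a*G. The 3 groups did not overlap, with A highest and G lowest. PER2 was 1.34-fold higher with A than with G (log2 0.42 ± 0.075, 95% interval 0.26 to 0.59, limma adjusted p = 0.00168). Against control the differences were 0.17 ± 0.075 for A (95% interval 0.01 to 0.34) and -0.25 ± 0.075 for G (-0.41 to -0.09). The other probe set, 208518_s_at, was dim (means 13.0, 13.1 and 10.1), and its difference between the forms was 0.14 ± 0.129, of the same sign. With both probe sets averaged the form difference was 0.28 (adjusted p = 0.0323).

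PER3, the third PER repressor, differed between the forms on its brightest probe set. That one, 221045_s_at, read 173, 125 and 138 in control, 128, 140 and 123 with A, and 80.6, 90.4 and 91.2 with G. The G arrays lay below all others, while control and A overlapped. PER3 was 1.42-fold higher with A than with G (log2 0.50 ± 0.105, 95% interval 0.27 to 0.73, limma adjusted p = 0.00519). Against control the differences were -0.13 ± 0.105 for A and -0.63 ± 0.105 for G, a 1.55-fold lower level.

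The other tested PER3 probe sets followed it in part. On 1555131_a_at the group means were 60.5 in control, 48.8 with A and 61.2 with G, a difference between the forms of -0.25 ± 0.10, opposite in sign. On 1569701_at the G arrays (26.5, 24.2 and 23.5) lay below the controls (32.1, 30.6 and 31.3), with -0.22 ± 0.106 for G against control and 0.19 ± 0.106 between the forms. With the mean of the tested probe sets in place of the brightest, PER3 differed between the forms by 0.15 (limma adjusted p = 0.199) and no longer passed. The probe set 1555130_at was under the filter on low values, with means of 6.57 in control, 3.32 with A and 1.88 with G.

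CRY1, the partner of PER in repression, has a single probe set, 209674_at. It read 209, 149 and 192 in control, 247, 234 and 225 with A, and 199, 229 and 234 with G. A lay above control on every array, while G overlapped control. The difference was 0.35 ± 0.108 for A (95% interval 0.11 to 0.58) and 0.26 ± 0.108 for G (0.02 to 0.49). Between the forms CRY1 did not pass (0.09 ± 0.108, 95% interval -0.15 to 0.32, limma adjusted p = 0.631).

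CRY2, the second cryptochrome, was dim and uneven on its only probe set, 212695_at. Control arrays read 22.5, 5.58 and 34.7, A arrays 12.0, 26.8 and 24.7, and G arrays 21.7, 3.76 and 14.9. The 3 groups overlapped, and the spread within each was as wide as any gap between them. CRY2 did not pass between the forms (0.36 ± 0.294, 95% interval -0.28 to 1.00, limma adjusted p = 0.447). The interval is wide, and any difference within it is compatible with the values of this probe set.

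CLOCK, the activator that pairs with BMAL1, was read on 3 tested probe sets that differed in spread. Its brightest probe set, 225856_at, read 409, 291 and 326 in control, 305, 314 and 303 with A, and 333, 341 and 331 with G. A and G did not overlap, yet the spread of control covered both (SD 61.0, 6.19 and 5.67 in control, A and G). The difference between the forms was -0.12 ± 0.099 (95% interval -0.33 to 0.10, limma adjusted p = 0.458) and did not pass. Against control it was -0.13 ± 0.099 for A and -0.01 ± 0.099 for G. The probe sets 204980_at and 227531_at gave -0.23 ± 0.076 and -0.33 ± 0.123 for A and -0.19 ± 0.076 and -0.19 ± 0.123 for G. On 227531_at the wider spread was in the miRNA groups (SD 23.9, 37.7 and 45.7). All 3 tested probe sets of CLOCK had a negative sign in both comparisons with control. A further one, 217563_at, was under the filter, with means of 8.71, 11.3 and 10.7.

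DBP, an activator of D-box genes whose own gene is an E-box target, was dim on both probe sets. On 209782_s_at it read 30.3, 41.3 and 28.5 in control, 33.4, 28.4 and 47.4 with A, and 33.5, 38.8 and 28.4 with G. The groups overlapped fully, and the form difference was 0.07 ± 0.143 (95% interval -0.24 to 0.38, limma adjusted p = 0.791). The dimmer 209783_at gave -0.34 ± 0.118 for A and -0.03 ± 0.118 for G against control, and -0.30 ± 0.118 between the forms.

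**Figure D2:**
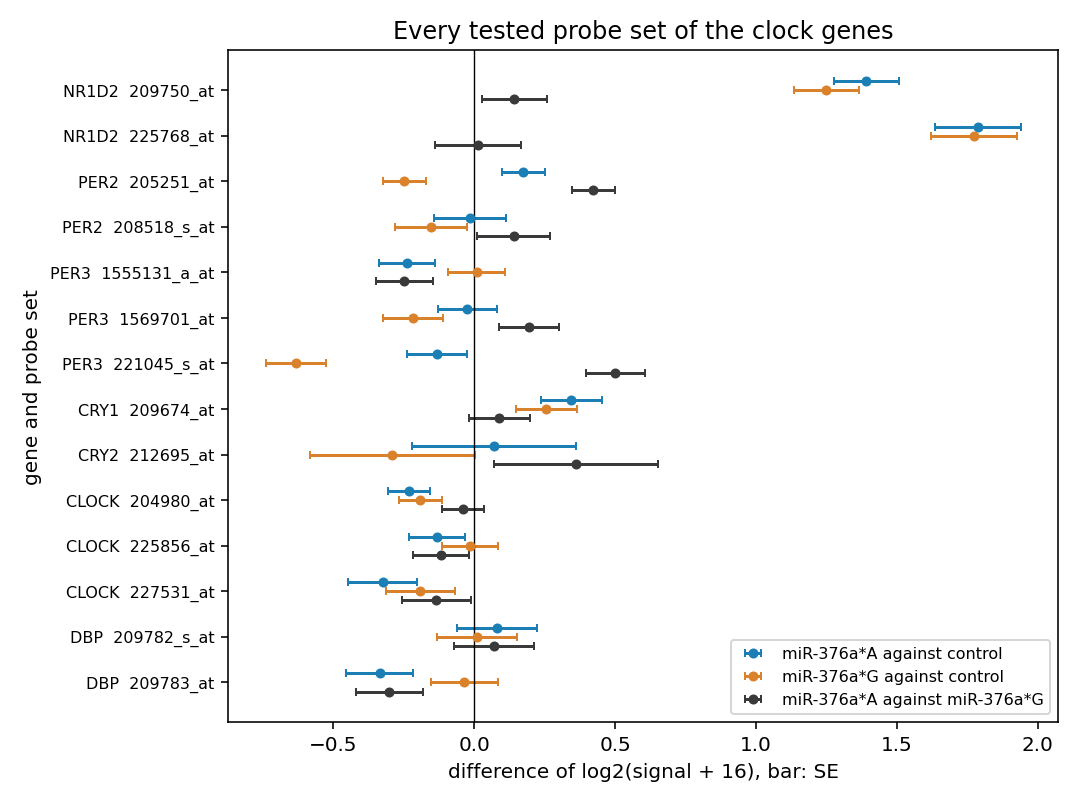
Difference of log2(signal + 16) for each of the 14 tested probe sets of the 7 clock genes, with A against control in blue, G against control in orange, A against G in black and bars for the SE. Both NR1D2 probe sets lie far to the right of 0 for both forms, while the 3 PER3 probe sets spread to both sides of 0.

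All 7 genes had a probe set past the filter on low values, and 14 of the 16 probe sets passed it. For miR-376a*A against control 2 of the 7 members passed as higher and 0 as lower, where 10.8% of the 20068 features tested passed as higher and 10.0% as lower. A feature is a gene by its brightest probe set, or a probe set with no symbol of its own. For miR-376a*G against control 1 was higher and 2 were lower, beside 11.8% and 13.1% of features. NR1D2 was selected on these contrasts and the part of the other genes' values in the choice is not recorded, so nothing is read from the counts against control. They also moved with the arrays. The 2 with A were 1 without control replicate 2 or 3, any A array, or G replicate 2 or 3. The 2 lower with G were 1 without control replicate 3 or any G array, with quantile normalization, with averaged probe sets and with only the 2 groups compared, and the 1 higher was 2 without control replicate 1. Between the forms 2 of 7 were higher with A (PER2 and PER3) and 0 lower, where 10.4% of features were higher and 7.90% lower. Centring each array on its median turned the split of features from 2164 higher and 2013 lower to 1659 and 2353 for A against control. Between the forms it turned 2086 higher and 1585 lower to 1509 and 2217.

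Groups did not overlap for 3 of the 7 members in each comparison. They were NR1D2, PER2 and CRY1 for A against control, where 36.7% of features did not overlap, and NR1D2, PER2 and PER3 for G, where it was 38.3%. Between the forms they were PER2, PER3 and CLOCK, with 42.2% of features. The median difference over the 7 members was 0.08, -0.01 and 0.09 for A against control, G against control and A against G, close to 0.04, 0.00 and 0.03 over all features. Leaving out each array in turn moved the difference of CRY1 with A between 0.21 and 0.44. The PER2 and PER3 differences between the forms passed with each array left out in turn.

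The control arrays of the members shared an order. In 5 of the 7 (NR1D2, PER2, PER3, CRY1 and CLOCK) control replicate 1 was the highest and replicate 2 the lowest control, as in 24.5% of all features. These 5 genes are therefore not independent readings of the control spread, and its part in their differences was not tested.

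The genes whose signals followed NR1D2 most closely over the 9 arrays were TMED5, NUTM2A-AS1, CLIC4, ZFP36L2, FAM3C and MINPP1, with Pearson r from 0.988 to 0.992 on log2(signal + 16). This is a likeness over 3 groups of 3 arrays that share their control arrays, and 131 of 13696 genes reached an r of 0.95. TMED5, a protein of transport vesicles, read 624, 480.0 and 537 in control, 918, 917 and 896 with A, and 865, 934 and 925 with G. The largest differences among them were those of MINPP1, an inositol phosphate phosphatase (1.24 with A and 1.23 with G), and FAM3C, a secreted protein (1.18 and 1.31). ZFP36L2, which binds AU-rich elements of mRNA, had 0.76 and 0.73, and CLIC4, a chloride channel protein, 0.48 in both. Averaging a gene's probe sets brought the differences of TMED5 from 0.73 and 0.72 to 0.19 and 0.19, and those of ZFP36L2 to 0.31 and 0.32. NUTM2A-AS1, a dim antisense transcript, had 0.49 and 0.50. Its control arrays read 8.82, 5.39 and 9.39, each under the filter level of 11.3, beside means of 17.4 with A and 17.6 with G. Under other processing its difference ranged from 0.18 to 1.08 with A and from 0.18 to 1.10 with G.

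The rest of the loop was read from lists of genes other than the members, of which 78 genes were tested. Of these 78, 4 were listed for the chromosome regions of NR1D1 and NR1D2 and not for a part in the clock. The 78 are called other clock genes below. For miR-376a*A against control 7 were higher and 16 lower, for the G form 8 were higher and 21 lower, and between the forms 14 were higher and 12 lower with A. As shares that is 8.97% and 20.5%, 10.3% and 26.9%, and 17.9% and 15.4%, beside 10.8% and 10.0%, 11.8% and 13.1%, and 10.4% and 7.90% of all features. The 2 comparisons with control share the control arrays. Without A replicate 1 or 2 the A count of 23 was 14 or 15, the 7 higher were 4, and without A replicate 1 the 16 lower were 10. Without G replicate 2 the count of 26 between the forms was 17, and the 12 lower were 7 without any 1 of the G arrays.

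Among clock transcription factors 10 of 12 listed genes were tested. With miR-376a*G 0 were higher and 4 lower than control (NFIL3, BMAL1, BHLHE40 and RORA), and the list median was -0.24 beside 0.00 for all features. With miR-376a*A 2 were higher (RORA and BHLHE41) and 2 lower (NFIL3 and BHLHE40), with a median of -0.04 beside 0.04. Between the forms 5 were higher with A and 0 lower, with a median of 0.33 beside 0.03. The share lower with G, 40%, stands beside 13.1% of features, and the share higher between the forms, 50%, beside 10.4%. With A 20% were higher and 20% lower, beside 10.8% and 10.0%. The 2 higher with A against control were 0 without A replicate 1 or 2 and 1 without control replicate 2 or 3, and without A replicate 2 there was 1 lower between the forms.

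NFIL3, the repressor at D-boxes and a known target of NR1D repression, read 403, 395 and 393 in control, 287, 304 and 292 with A, and 206, 180 and 208 with G. The 3 groups were fully separate. It fell 1.33-fold with A (log2 -0.41 ± 0.072, limma adjusted p = 0.00143) and 1.93-fold with G (-0.95 ± 0.072, adjusted p = 1.37e-06). NFIL3 was 1.45-fold higher with A than with G (adjusted p = 1.81e-04).

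BMAL1, the partner of CLOCK and another known target of NR1D repression, read 248, 176 and 171 in control, 166, 149 and 177 with A, and 84.3, 111 and 114 with G. The G arrays lay below all others, and A overlapped control. BMAL1 fell with G (log2 -0.84 ± 0.136, limma adjusted p = 6.77e-04) and did not pass with A (-0.24 ± 0.136, adjusted p = 0.24). The difference between the forms passed (0.60, adjusted p = 0.00813). Its other probe set gave -1.03 with G and 0.57 between the forms, and with both averaged BMAL1 also passed with A (-0.35, adjusted p = 0.0294).

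RORA, the activating receptor at the sites that NR1D proteins bind, went apart between the forms. It read 254, 223 and 245 in control, 321, 309 and 295 with A, and 126, 140.4 and 160.0 with G, with no overlap of the 3 groups. RORA was 2.06-fold higher with A than with G (log2 1.04 ± 0.087, limma adjusted p = 3.47e-06), and it fell 1.63-fold with G against control (adjusted p = 8.68e-05). Its rise with A (0.34 ± 0.087, adjusted p = 0.0153) was lost without A replicate 1 (0.31) or 2 (0.34) and when its probe sets were averaged (0.15). Its 5 other probe sets gave -0.24 to 0.42 for that comparison, and -0.49 to -0.04 for G against control. With all its probe sets averaged RORA still passed between the forms (0.49, adjusted p = 2.02e-04) and with G (-0.34, adjusted p = 0.00188).

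BHLHE40 (DEC1) and BHLHE41 (DEC2) are repressors that compete for E-boxes. BHLHE40 read 897, 903 and 840.0 in control, 690, 669 and 669 with A, and 560, 507 and 524 with G. It fell 1.29-fold with A (limma adjusted p = 0.00108) and 1.64-fold with G (adjusted p = 4.54e-06), and the forms differed by 0.34 (adjusted p = 0.002). BHLHE41 was 0.35 higher with A than with G (adjusted p = 0.00971), a call that was lost without A replicate 1 (adjusted p = 0.0507). Its other probe sets gave -0.39 and 0.30 for A against control, so its rise of 0.29 there (adjusted p = 0.0255) depends on the probe set.

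**Figure D3:**
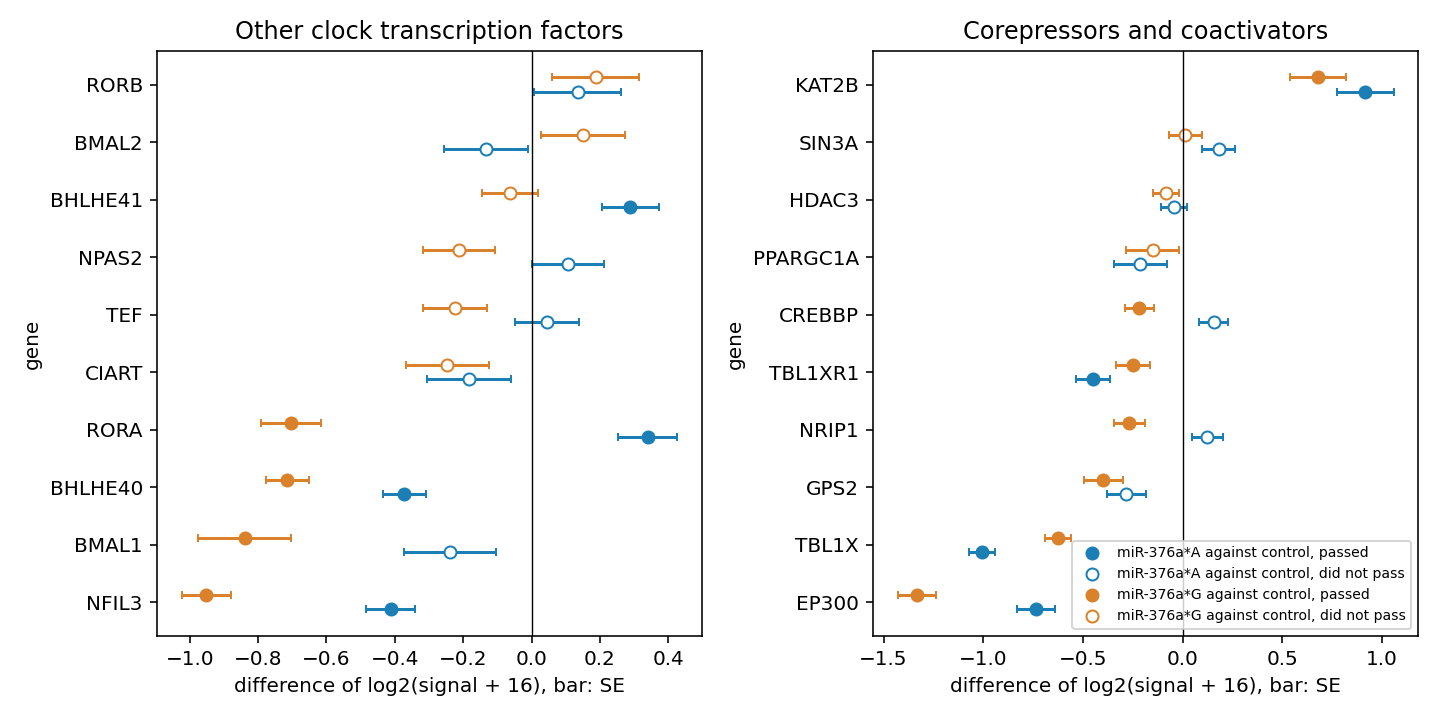
Difference of log2(signal + 16) from control for the 10 tested clock transcription factors (left) and the 10 tested corepressors and coactivators (right), with A in blue, G in orange, bars for the SE, and filled points where the adjusted p was under 0.05. NFIL3, BMAL1, BHLHE40 and RORA are filled on the left of 0 for G, and KAT2B is filled on the right of 0 for both forms.

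Cofactors of the loop included EP300 and TBL1X, which fell with both forms. Of 12 listed corepressors and coactivators 10 were tested. With A 1 was higher and 3 were lower, with G 1 was higher and 6 were lower, and between the forms 3 were higher and 1 lower with A. The shares lower, 30% with A and 60% with G, stand beside 10.0% and 13.1% of features, and the shares higher, 10% each, beside 10.8% and 11.8%. Between the forms 30% were higher with A and 10% lower, beside 10.4% and 7.90%. The 6 lower with G were 3 without control replicate 3, G replicate 1 or G replicate 2, and the 1 lower between the forms was 2 without control replicate 1. HDAC3, the deacetylase that NR1D proteins recruit, did not pass (-0.04 ± 0.066 with A and -0.08 ± 0.066 with G).

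EP300, a histone acetyltransferase that coactivates CLOCK and BMAL1, read 314, 257 and 231 in control, 160.0, 150.0 and 149 with A, and 97.1, 94.2 and 95.9 with G. It fell 1.67-fold with A (limma adjusted p = 1.71e-04) and 2.52-fold with G (adjusted p = 9.56e-07). TBL1X, a subunit of a nuclear receptor corepressor complex, fell from 390, 384 and 392 in control to 194, 175 and 187 with A and 248, 243 and 249 with G. That was 2.01-fold with A (adjusted p = 4.32e-07) and 1.54-fold with G (adjusted p = 2.14e-05). The other probe set of EP300 gave -0.23 with A and -1.01 with G, and the 4 others of TBL1X gave -0.62 to -0.21 with A and -0.45 to -0.18 with G. Averaged over probe sets the differences were -0.48 and -1.17 for EP300 and -0.59 and -0.37 for TBL1X, and both genes still passed with both forms. The acetyltransferase KAT2B went the other way, from 133, 81.0 and 107 to 238, 201 and 202 with A (1.89-fold higher, adjusted p = 5.92e-04) and 152, 188 and 197 with G (1.60-fold, adjusted p = 0.00372).

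Regulators of clock protein stability showed 0 higher and 4 lower of 17 tested with A, 3 and 3 with G, and 0 and 4 between the forms. The shares lower were 23.5%, 17.6% and 23.5%, beside 10.0%, 13.1% and 7.90% of features. The shares higher were 0%, 17.6% and 0%, beside 10.8%, 11.8% and 10.4%. The 4 lower with A were 2 without A replicate 1 or 2, the 4 lower between the forms were 2 without any 1 of the 6 miRNA arrays, and the 3 higher with G were 5 without control replicate 2. FBXW11, a ubiquitin ligase subunit that marks PER proteins for degradation, fell with A and rose with G on its brightest probe set. It read 254, 266 and 251 in control, 168, 150 and 153 with A, and 382, 340 and 371 with G. It fell 1.58-fold with A (limma adjusted p = 4.28e-05) and rose 1.39-fold with G (adjusted p = 4.63e-04). FBXW11 was 2.20-fold lower with A than with G (log2 -1.14 ± 0.073, limma adjusted p = 3.62e-07). Its second probe set gave -0.62 with A, 0.23 with G and -0.85 for the form difference. The casein kinases that phosphorylate PER proteins, CSNK1D (-0.10 and -0.05) and CSNK1E (0.01 and -0.08), did not pass against control with A or G.

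Output genes of the clock showed 1 higher and 4 lower of 16 tested with A, 1 and 6 with G, and 3 and 2 between the forms. The shares lower were 25%, 37.5% and 12.5%, beside 10.0%, 13.1% and 7.90% of features. The shares higher were 6.25%, 6.25% and 18.8%, beside 10.8%, 11.8% and 10.4%. The 4 lower with A were 2 without A replicate 1 or 3 or G replicate 2 or 3, the 6 lower with G were 3 without G replicate 2 or 3, and the 3 higher between the forms were 1 without A replicate 1 or G replicate 2 and 5 without control replicate 1. PPARA, a receptor of lipid metabolism, read 119, 116 and 104 in control, 69.6, 61.5 and 60.2 with A, and 93.9, 82.7 and 105 with G. It fell 1.62-fold with A (limma adjusted p = 2.39e-04) and did not pass with G (-0.23 ± 0.095, adjusted p = 0.0949). The difference between the forms passed (-0.46, adjusted p = 0.00453), and was -0.23 with its probe sets averaged (adjusted p = 0.0419). With averaged probe sets the difference with G also passed (-0.25, adjusted p = 0.0254). WEE1, a mitotic inhibitor kinase with E-boxes in its gene, fell 1.74-fold with G (adjusted p = 7.83e-05) and 1.34-fold with A (adjusted p = 0.00938). NAMPT, the enzyme of NAD salvage, rose 1.26-fold with A (adjusted p = 0.00224) and 1.15-fold with G (adjusted p = 0.0343). The latter call was lost without control replicate 2 or 3, A replicate 2 or 3 or any G array (0.15 to 0.21). The cell cycle inhibitor CDKN1A was 0.39 higher with A than with G (adjusted p = 7.48e-04).

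Inducers of PER genes showed 3 higher and 2 lower of 21 tested with each form, and 2 higher and 4 lower between the forms. The shares with each form, 14.3% higher and 9.52% lower, were near those of all features (10.8% and 10.0% with A, 11.8% and 13.1% with G). The shares between the forms were 9.52% higher and 19% lower, beside 10.4% and 7.90% of features. The 2 lower with A were 0 without A replicate 1 or 2 and 1 without A replicate 3 or control replicate 3, and the 2 lower with G were 1 without control replicate 1 or 3. Between the forms the 2 higher were 1 without control replicate 3, A replicate 2 or G replicate 1 or 2, and the 4 lower were 2 without A replicate 1 or any G array. FOSB is counted as lower with G and as higher with A between the forms, here and among the 78 genes. Its G arrays read 5.76, 4.54 and 7.32, under the filter level of 11.3, so it passed the filter only through the other groups. It was tested in 14 of 19 alternatives, and in the rest a lost call of FOSB is a gene no longer tested. EGR1, an immediate early gene, read 108, 103 and 138 in control, 150.4, 134 and 146 with A, and 259, 258 and 263 with G. It rose 2.10-fold with G (limma adjusted p = 5.94e-06), and the forms differed by -0.79 (adjusted p = 8.48e-05). TSC22D3, a glucocorticoid target, was 0.51 higher with A than with G (adjusted p = 7.51e-04), and its other probe set gave 0.12. SGK1, a kinase induced by serum and glucocorticoids, was 0.43 higher with G than in control (adjusted p = 2.37e-04). SIK1, a kinase that restrains cyclic AMP signalling to PER1, was 0.46 lower with A than with G on its brightest probe set (adjusted p = 7.21e-04) and 0.09 lower on the other.

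Of genes listed for the chromosome regions of NR1D1 and NR1D2, THRA, THRB, TOP2B and RARB were tested. TOP2B, a topoisomerase gene of the NR1D2 region, fell with A (log2 -0.40 ± 0.080, limma adjusted p = 0.00355) and did not pass with G (-0.12 ± 0.080). THRB (0.12 with A and -0.23 with G) and RARB (0.27 and 0.19) did not pass against control. THRA, which overlaps NR1D1 on the other strand, did not pass either (-0.04 and -0.15). Of these 4 genes 0 passed as higher in either comparison with control, beside 10.8% and 11.8% of features. With quantile normalization 1 did in each. As lower 1 passed with A (25%, beside 10.0% of features) and 0 with G (beside 13.1%). Between the forms THRB was higher with A (0.35) and TOP2B lower (-0.28), 25% each beside 10.4% and 7.90%. The THRB call was lost in 7 of 19 alternatives and the TOP2B call in 5.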

How the data were processed

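The authors deposited linear probe-set signal intensities of 9 arrays, already scaled to a common trimmed mean. The submitters' processing notes name GCOS 1.4.0.036. What it was used for and how signals were computed is not given in the sources used here. On such a scale a change common to every transcript is invisible. Gene names come from the platform annotation.

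Signals were analysed as log2(signal + 16), computed here from the deposited intensities. Of 54675 probe sets 62 controls were left out, and the 32768 whose mean log2 value reached the 40th percentile (11.3 as a signal) were kept. The probe set of highest mean stood for each gene, giving 20068 features. Differences were tested two-sided with limma 3.58.1 in R 4.3.3 (intensity trend, all 9 arrays, 6 residual and 6.48 prior degrees of freedom) and Benjamini-Hochberg adjustment over all features, and a feature passed at an adjusted p under 0.05. Other probe sets of a gene come from the same model fitted to the 32768 probe sets. The procedure was also run on simulated data with independent noise for each feature, the same spread on every array and few changed features. That setting lacks the uneven control arrays, the shared control order and the many changed features seen here. It therefore cannot show how the procedure behaves on these data. Tables and figures used Python 3.11.15.

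The genes and lists were chosen with earlier results of these data known. Lists of clock factors, stability regulators, cofactors, outputs, inducers and genes of the NR1D regions follow textbook knowledge. Named were all members, list genes that passed in some comparison (first the 8 of smallest adjusted p in each) and the 6 genes most correlated with NR1D2. HDAC3, CSNK1D, CSNK1E and the genes of the NR1D regions that did not pass were named after their values were seen. Listed genes under the filter (HLF, MED24, GYS2, FBXL21P and USP2) were not tested, and some other listed genes are not reported here. Alternatives covered scaling, offset, filter, variance trend, array weights, probe set rule, arrays in the fit, replicate block and leaving out each array.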

Additional observations from a re-analysis of the deposited data

How the results depend on the processing

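Of 3063 gene values computed under the alternatives 2776 stayed on the same side of the threshold, 219 no longer passed and 68 newly passed, and 0 values that passed changed sign. Array weights, whose estimation did not converge and which put 8.156 on control replicate 3 and 0.1895 on replicate 1, raised the features that passed from 4177 to 8926 for A against control, from 4993 to 9466 for G against control and from 3671 to 6354 between the forms, the members with G from 3 to 5 and the other clock genes with G from 29 to 46. The members passing with A went from 2 to 1 with arrays centred on their median, with no filter, with no intensity trend and with only the 2 groups compared, and those between the forms from 2 to 1 with the mean of probe sets. With quantile normalization, the mean of probe sets or only the 2 groups compared, the members lower with G went from 2 to 1. Leaving out each array in turn gave 2841 to 4686, 3477 to 5414 and 2340 to 5233 features, 1 to 3, 2 to 4 and 2 to 2 members, and 14 to 25, 21 to 30 and 17 to 35 other clock genes for A against control, G against control and A against G. The cause was not tested, apart from the smaller number of arrays or features that some alternatives have by construction.

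Replicate numbers gave no pairing that held over all groups. Same-numbered arrays of different groups deviated with r from -0.11 to 0.07, and those of other numbers with r from -0.12 to 0.14. Of 9 arrays 3 correlated best with their own number. Same-numbered control and A arrays had r of 0.07, 0.07 and 0.04, while their pairs of other numbers were all negative. The highest r, 0.14, was that of control replicate 1 and G replicate 3. Sets of cultures numbered differently between groups were not tested, and a block on the replicate number cannot take them up. With the replicate number as a block 3840, 4714 and 3325 features, 1, 3 and 2 members and 20, 27 and 24 other clock genes passed. Dim probe sets (CRY2, DBP and the second of PER2) lie close to the background of the array, which limits what can be read from them.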
